A study of Mus musculus with 4 samples.

Results

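The E2F transcription factors and the retinoblastoma proteins that bind them were examined in Lin- Sca-1+ c-Kit+ (LSK) cells, the bone marrow fraction that holds the hematopoietic stem and multipotent progenitor cells. The members were 10 genes, taken as every non-control probe that the array annotation assigns to *E2f1*, *E2f2*, *E2f3*, *E2f4*, *E2f6*, *E2f7*, *E2f8*, *Rb1*, *Rbl1* or *Rbl2*, out of 28095 gene name entries on the array. They were covered by 18 of 41174 probes, and the rule uses the annotation alone. By role, 3 genes are activators (*E2f1* to *E2f3*, 7 probes), 4 are repressors (*E2f4* and *E2f6* to *E2f8*, 6 probes) and 3 encode pocket proteins (*Rb1*, *Rbl1* and *Rbl2*, 5 probes).

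Genome-wide expression was measured on 4 arrays, 2 per genotype. Meis1-KO LSK cells came from Mx1-Cre-positive *Meis1* fl/fl mice and Meis1-WT LSK cells from *Meis1* fl/fl mice without Cre, so that the floxed alleles were shared by both groups and the transgene was carried by the Meis1-KO mice alone. The background was C57BL/6J, and mice aged 4 to 8 weeks received 4 injections of poly(I:C), a double-stranded RNA that triggers interferon, at 1.5 μg/g and 1-day intervals. The sources differ on the controls, which the sample labels describe as injected in the same way and the series design as sham-treated, so that the effects of genotype, Cre and, if the latter is right, poly(I:C) cannot be told apart. Cells were taken 1 week after treatment, and each array was made from the pooled cells of 6 mice. The *Mx1* promoter that drives Cre responds to interferon and is active in cell types besides hematopoietic cells, and the deleted exon 8 of *Meis1* encodes the homeodomain, so that a transcript without it can still reach probes elsewhere in the gene.

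E2F factors bind DNA together with a DP partner and control the genes that a cell needs to enter and complete S phase. In resting cells the pocket proteins hold these genes down: RB binds mainly the activators E2F1 to E2F3, and the RBL1 (p107) and RBL2 (p130) proteins bind mainly E2F4, p130 together with E2F4 and the MuvB core forming the DREAM complex. Cyclin-dependent kinases phosphorylate the pocket proteins and free the E2F factors, and the atypical members E2F7 and E2F8, which need no DP partner, switch the targets off again later in the cycle. Hematopoietic stem cells spend most of their time out of cycle, and the pocket proteins are known to take part in holding them there.

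Values are log2 of the background-subtracted signal minus the 75th percentile of the array, so 0 is the 75th percentile and a difference of 1 is a doubling. Levels of different probes are not on a common scale, so brightness was used only to choose the main probe of a gene and to describe the target list. The summed marker levels given at the end serve only to compare arrays, beside the sum over all genes. The share of spots well above background was 49.2% to 57.4%. The second Meis1-KO array was the dimmest, with a 75th percentile of 90.1 against 147 to 154 on the other 3 arrays, and its log2 values correlated with theirs at r = 0.891 to 0.916, while those 3 correlated at 0.956 to 0.967. Arrays with the same number shared a slide, so the differences are also given for slide 1 (Meis1-KO 1 minus Meis1-WT 1) and slide 2 (Meis1-KO 2 minus Meis1-WT 2). As a check of the labels, the targeted gene *Meis1* read 0.25 and 0.22 on the Meis1-KO arrays against 1.02 and 1.45 on the Meis1-WT arrays with one probe (A_52_P670612, log2 fold change -0.997, limma adjusted p = 0.983). A dimmer probe (A_52_P26195) read -2.46 and -3.54 against -1.55 and -1.06 (log2 fold change -1.70, limma adjusted p = 0.983), and its second Meis1-KO value was not well above background. Both probes were lower in both Meis1-KO pools, the first with an unadjusted p above 0.05 and the second with one under it, and where the probes lie relative to the deleted exon was not determined. A probe was tested when its signal was well above background in both pools of a genotype, and this held for all 6 markers of the LSK gate and of stem cells, *Kit* and *Ly6a* (Sca-1) among them.

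No member passed the test between the genotypes. Of the 18 member probes, 16 were tested, and these 16 were well above background on all 4 arrays. The 2 untested probes, A_52_P892297 for *E2f3* and A_52_P607075 for *E2f7*, were not well above background on any array. With limma, 0 of 16 probes had an unadjusted p under 0.05, where 2.81% of the 22007 tested probes did, and 0 of 16 met the criteria of the study's methods (p under 0.01 and over 2-fold), where 0.736% did. The lowest member p was 0.237, and the adjusted p values ran from 0.983 to 0.994. Over the whole array, 0 probes passed an adjusted p of 0.05 in this limma fit and 618 had an unadjusted p under 0.05, and the methods' t-test gave 0 and 528, with 0 of 16 member probes under 0.05.

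The members leaned to higher values in Meis1-KO cells, as did all probes. Of the 16 probes, 11 were higher in Meis1-KO cells, against 56.3% of all tested probes. Both Meis1-KO arrays lay above both Meis1-WT arrays for 4 member probes (16.0% of all tested probes), and below both for 1 (10.9%), and the genotypes overlapped for the other 11. With the brightest tested probe of each gene, 8 genes were higher and 2 lower, where 59.9% of all genes with a symbol were higher, with a median log2 fold change of 0.15 against 0.13 over all 12257 genes with a symbol. The medians were 0.14 for the 3 activators, 0.13 for the 4 repressors and 0.36 for the 3 pocket protein genes. The count of higher probes rests on the processing. It was 9 of 16 with quantile scaling and with normexp background correction, where 52.7% and 66.7% of all tested probes were higher. With no scaling it was 3 of 16, where 25.6% of all tested probes were higher. Leaving out the scaling shifted every probe alike and lowered the median of all probes from 0.082 to -0.30.

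**Figure D1:**
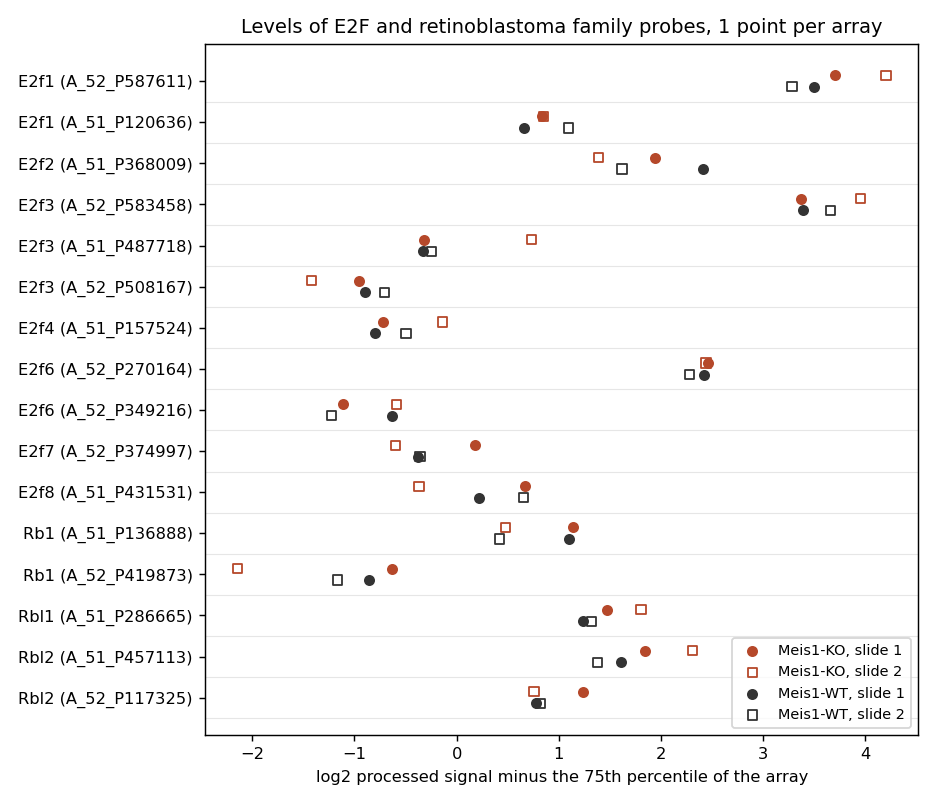
Level of each tested member probe on each of the 4 arrays, as log2 processed signal minus the 75th percentile of that array (horizontal axis, log2 units). Meis1-KO arrays are red, Meis1-WT arrays black, slide 1 filled circles and slide 2 open squares. Both red points lie to the right of both black points for 4 probes (one each of *E2f1*, *E2f6*, *Rbl1* and *Rbl2*) and to the left for 1 (*E2f3* A_52_P508167).

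The precision of these arrays sets what can be said of each gene. Standard errors of the log2 fold change were 0.42 to 0.61 over the 16 probes, and the median over all tested probes was 0.49. The 95% intervals reached 1.02 to 1.47 to either side of the estimate. A doubling in Meis1-KO cells lay within the interval of 13 of the 16 probes, and a halving within that of 7. With 2 arrays per genotype, an exact permutation test of a single probe cannot give a two-sided p under 0.333. The limma p-values set a difference against the spread between arrays of a genotype, moderated by the spread over all tested probes. For the main *E2f6* probe the SE was 0.42 with limma and 0.074 with the methods' t-test, and for *E2f8* 0.53 and 0.56. Each array is 1 pool of mice, so differences between pools and between hybridizations are not separated.

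**Figure D2:**
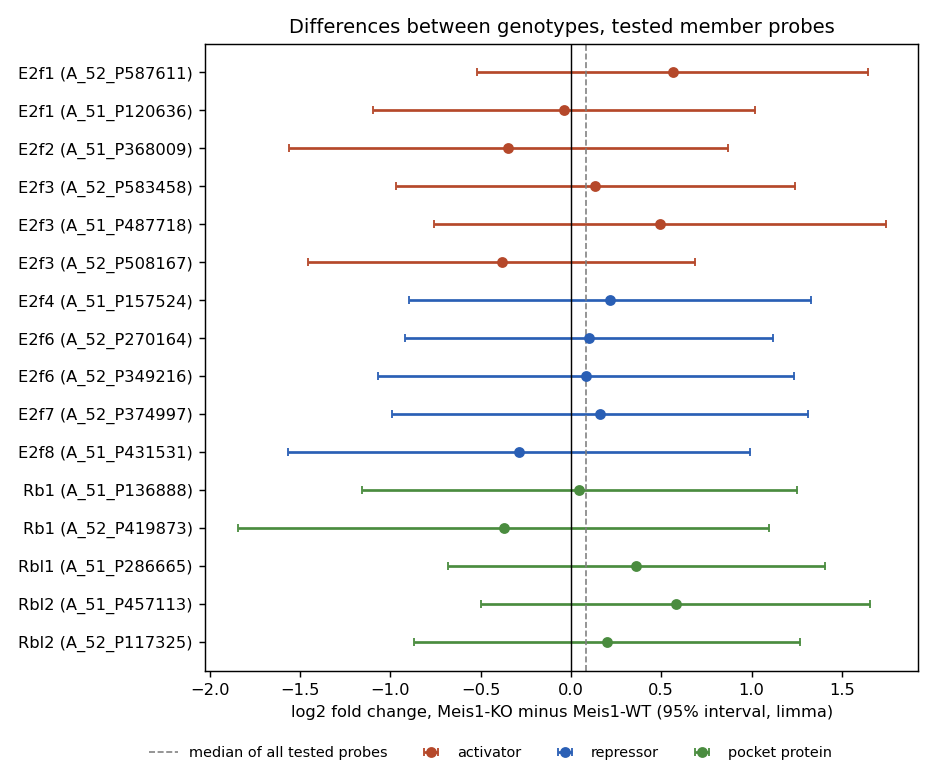
Log2 fold change (Meis1-KO minus Meis1-WT, horizontal axis) of the 16 tested member probes, with 95% intervals from limma, coloured by role. Every interval crosses 0, and estimates run from -0.38 for *E2f3* A_52_P508167 to 0.58 for *Rbl2* A_51_P457113. The dashed line marks the median of all tested probes, 0.082.

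Among the activators, *E2f1* had the largest difference. E2F1 is the activator best known both for driving S phase entry and for inducing apoptosis. Its brighter probe, A_52_P587611 (mm9 chr2:154386004-154386063, minus strand), read 3.71 and 4.20 on the Meis1-KO arrays and 3.50 and 3.28 on the Meis1-WT arrays. Both Meis1-KO values were the higher ones, by 0.21 on slide 1 and 0.92 on slide 2. The log2 fold change was 0.56 ± 0.45 (SE), with a 95% interval from -0.52 to 1.65 and a limma adjusted p of 0.983. Without the second Meis1-KO array it was 0.32, and without the first 0.81.

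The other *E2f1* probe did not share this pattern. A_51_P120636 (mm9 chr2:154385742-154385801) lies 202 bases further 3′ in the gene and was printed in 10 spots on each array. It read 0.83 and 0.85 on the Meis1-KO arrays and 0.66 and 1.09 on the Meis1-WT arrays. The Meis1-KO values lay between the Meis1-WT values, and the log2 fold change was -0.039 ± 0.44. The 10 spots of an array varied with an SD of 0.047 to 0.080 (log2). The SD between the Meis1-WT arrays was larger, at 0.30, and that between the Meis1-KO arrays smaller, at 0.011.

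*E2f2*, an activator abundant in hematopoietic progenitors and erythroblasts, was one of the 2 member genes with a lower level in Meis1-KO cells. Its probe A_51_P368009 (mm9 chr4:135750562-135750621) read 1.94 and 1.39 on the Meis1-KO arrays and 2.41 and 1.62 on the Meis1-WT arrays. It was lower in Meis1-KO cells on either slide (differences of -0.47 and -0.23), but both slide 2 values were below the slide 1 value of the same genotype and the genotypes overlapped. The log2 fold change was -0.35 ± 0.50 (limma adjusted p = 0.983).

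*E2f3*, which encodes a long and a short activator isoform from alternative promoters, was measured by 3 tested probes that gave 3 different pictures. The brightest, A_52_P583458 (mm9 chr13:29998480-29998539), read 3.37 and 3.95 in Meis1-KO and 3.39 and 3.66 in Meis1-WT cells, a log2 fold change of 0.14 ± 0.46. A_51_P487718 read -0.32 and 0.73 in Meis1-KO and -0.33 and -0.25 in Meis1-WT cells, so that the second Meis1-KO array alone stood apart (0.49 ± 0.52). A_52_P508167 moved the other way, with -0.95 and -1.42 in Meis1-KO against -0.90 and -0.71 in Meis1-WT cells (-0.38 ± 0.44), and was the only tested member probe with both Meis1-KO values lowest. The 3 probes agreed on slide 1, where their differences were -0.020, 0.0063 and -0.057, and parted on slide 2, where they were 0.29, 0.98 and -0.71. With 1 probe higher, 1 lower and 1 near the median of all probes, no common direction of *E2f3* was seen.

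The probe with the lowest *E2f3* difference is shown because an *E2f3* primer listed for the study's quantitative PCR lies in the same part of the transcript. The study's text names no quantitative PCR result for *E2f3*. Capitals mark the 25 bases (24 to 48 from the 5′ end of the probe) that are the complement of the study's *E2f3* reverse primer.
A_52_P508167: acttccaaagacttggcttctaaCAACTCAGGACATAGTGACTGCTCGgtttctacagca
On mm9 the array annotation places this probe at chr13:30001985-30003071, on the minus strand, 1027 bases more than its own 60, so that the probe joins stretches that are apart in the genome. A_51_P487718 likewise covers chr13:30005369-30008755, 3327 bases more than its length, and the brightest probe lies in an unbroken stretch. Exon numbers are not given here, since no annotation of that build was used.

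The estimates of the 5 tested repressor probes lay between -0.29 and 0.22. *E2f4*, the main E2F of quiescent cells and the E2F component of DREAM, was read by A_51_P157524 (mm9 chr8:107829156-107829215) at -0.72 and -0.14 in Meis1-KO and at -0.80 and -0.49 in Meis1-WT cells. The pools overlapped, and the log2 fold change was 0.22 ± 0.46. *E2f6*, which represses without binding pocket proteins as part of a Polycomb complex, had 2 tested probes. Its brighter probe, A_52_P270164 (mm9 chr12:16833463-16833522), read 2.46 and 2.44 in Meis1-KO against 2.42 and 2.28 in Meis1-WT cells. Both Meis1-KO values were above both Meis1-WT values, but by 0.034 on slide 1 and 0.17 on slide 2, and the log2 fold change was 0.10 ± 0.42 (95% interval -0.92 to 1.12). The other *E2f6* probe, A_52_P349216, gave opposite differences on the slides (-0.47 and 0.64) and 0.081 ± 0.47 in all.

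The atypical repressors *E2f7* and *E2f8* each changed sign between the slides. *E2f7* was read by A_52_P374997 (mm9 chr10:110224153-110224212) at 0.18 and -0.60 in Meis1-KO and at -0.38 and -0.36 in Meis1-WT cells. The Meis1-WT pools were almost equal, and the Meis1-KO pools lay on either side of them, for a log2 fold change of 0.16 ± 0.47. *E2f8* was read by A_51_P431531 (mm9 chr7:56122022-56122081) at 0.67 and -0.37 in Meis1-KO and at 0.22 and 0.65 in Meis1-WT cells. The difference was 0.45 on slide 1 and -1.02 on slide 2, for a log2 fold change of -0.29 ± 0.53. In both genes the second Meis1-KO array held the lowest value of the 4, and without it the log2 fold changes were 0.55 for *E2f7* and 0.24 for *E2f8*.

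The pocket protein genes included the largest member difference. *Rbl2* encodes p130, the pocket protein that predominates in quiescent cells. Its brighter probe, A_51_P457113 (mm9 chr8:93646362-93646421), read 1.84 and 2.31 on the Meis1-KO arrays and 1.61 and 1.38 on the Meis1-WT arrays. Both Meis1-KO values were higher, by 0.23 on slide 1 and 0.93 on slide 2. The log2 fold change was 0.58 ± 0.44, with a 95% interval from -0.50 to 1.66 and a limma adjusted p of 0.983. It was 0.35 without the second Meis1-KO array and 0.81 without the first. A dimmer probe 698 bases further 3′, A_52_P117325, read 1.23 and 0.76 in Meis1-KO against 0.78 and 0.82 in Meis1-WT cells (0.20 ± 0.44). With this dimmer probe the first Meis1-KO array was the high one and the second the lowest of the 4, whereas the second Meis1-KO array was the highest with the brighter probe.

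*Rbl1*, which encodes p107 and is itself an E2F target that rises as cells enter the cycle, was read by A_51_P286665 (mm9 chr2:156972143-156972202) at 1.47 and 1.81 in Meis1-KO and at 1.23 and 1.32 in Meis1-WT cells. Both Meis1-KO pools were higher, by 0.24 on slide 1 and 0.49 on slide 2. The log2 fold change was 0.36 ± 0.43 (95% interval -0.68 to 1.41, limma adjusted p = 0.983), and it was 0.20 without the second Meis1-KO array and 0.53 without the first.

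*Rb1*, the retinoblastoma gene itself, showed the slides more than the genotypes. Its brighter probe, A_51_P136888 (mm9 chr14:73595408-73595467), was printed in 10 spots and read 1.14 and 0.48 in Meis1-KO and 1.10 and 0.42 in Meis1-WT cells. The 2 arrays of slide 1 were alike and the 2 arrays of slide 2 were lower, so that the difference between genotypes was 0.040 on slide 1 and 0.054 on slide 2. Within an array the 10 spots had an SD of 0.041 to 0.057. The log2 fold change was 0.047 ± 0.50 (95% interval -1.16 to 1.25).

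The other *Rb1* probe had the widest error of the members. A_52_P419873 (mm9 chr14:73662360-73662419) lies 66892 bases from the first, toward the 5′ end of the gene, and its sequence is shown because the probes of this gene differed.
A_52_P419873: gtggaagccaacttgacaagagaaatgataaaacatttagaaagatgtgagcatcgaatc
It read -0.63 and -2.14 in Meis1-KO and -0.86 and -1.16 in Meis1-WT cells. The low value of the second Meis1-KO array gave a log2 fold change of -0.37 ± 0.61, while on slide 1 the Meis1-KO value was the higher one by 0.23. When the first Meis1-KO array was left out, this probe and *E2f3* A_51_P487718 had an unadjusted limma p under 0.05. That fit has a single Meis1-KO array, assumed to vary like the 2 Meis1-WT arrays that give the spread, and in it 5787 of all tested probes were under 0.05, against 2 of 16 member probes.

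The slides thus gave partly different accounts of the same genes. Of the 16 member probes, 9 had the same sign on both slides and 7 opposite signs, and 51.2% of all tested probes kept their sign. By main probe, 6 of 10 genes were higher on both slides (*E2f1*, *E2f4*, *E2f6*, *Rb1*, *Rbl1* and *Rbl2*) and 1 was lower on both (*E2f2*), where 3877 of the 12257 genes with a symbol were higher on both and 2393 lower on both. The median difference of the 10 genes was 0.14 on slide 1 and 0.23 on slide 2, where all genes with a symbol had medians of 0.0075 and 0.23.

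**Figure D3:**
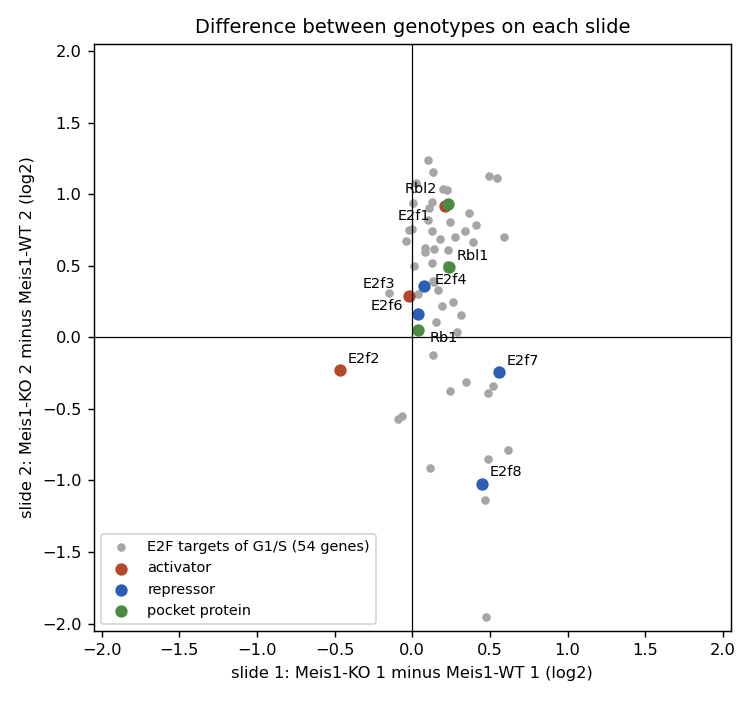
Difference between genotypes (log2, Meis1-KO minus Meis1-WT) on slide 1 (horizontal axis) and slide 2 (vertical axis), 1 point per gene with its brightest tested probe. Members are coloured by role and named, and the 54 E2F targets of G1/S are grey. *E2f1* and *Rbl2* lie at 0.92 and 0.93 on slide 2, *E2f8* at -1.02, and 38 of the 54 targets lie in the upper right part, higher on both slides, as do 3877 of all 12257 genes with a symbol.

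The genes around the E2F factors were then read from fixed lists, with the brightest tested probe of each gene. For comparison, 59.9% of all 12257 genes with a symbol were higher in Meis1-KO cells, with a median of 0.13. Among the DNA-binding partners, *Tfdp1*, the main DP subunit, read 4.88 and 5.67 in Meis1-KO and 4.62 and 4.65 in Meis1-WT cells, a log2 fold change of 0.64 ± 0.47 (limma adjusted p = 0.983). The second DP gene, *Tfdp2*, was at -0.20 ± 0.42, and *E2f5*, a close relative of *E2f4*, at 0.051 ± 0.62. None of these 3 genes passed an unadjusted p of 0.05.

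The 7 genes of MuvB and DREAM had 5 higher and 2 lower estimates, a median of 0.11, close to that of all genes, and no gene with an unadjusted p under 0.05. *Rbbp4*, the histone-binding subunit of MuvB and of several chromatin complexes, was at 0.64 ± 0.48, and *Lin37*, a MuvB subunit needed for repression, at 0.42 ± 0.53. *Mybl2*, the B-Myb factor that replaces the pocket proteins on MuvB in cycling cells, was at -0.64 ± 0.54. Of 10 genes of the E2f6 Polycomb complex, 7 were higher, with a median of 0.066 that is below that of all genes, no p under 0.05, and *L3mbtl2*, a histone-binding subunit, at -0.52 ± 0.57, where the second Meis1-KO value was not well above background.

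Upstream of the pocket proteins, 13 of 15 cyclin, kinase and inhibitor genes were tested, and 8 were higher (61.5%, against 59.9% of all genes), with a median of 0.28 and no p under 0.05. *Ccne2*, a cyclin E gene and E2F target, read 1.54 and 2.36 in Meis1-KO and 0.96 and 1.28 in Meis1-WT cells (0.83 ± 0.49). *Cdkn2c*, which encodes the CDK4 and CDK6 inhibitor p18, was at 0.62 ± 0.44, and *Ccnd1*, which encodes cyclin D1, at 0.49 ± 0.42. In these 3 genes both Meis1-KO pools lay above both Meis1-WT pools, as in 5 of the 13 and in 2017 of all 12257 genes. *Cdkn1a*, which encodes the CDK inhibitor p21, had the lowest estimate of the list, with 1.89 and 0.12 in Meis1-KO against 3.12 and 0.95 in Meis1-WT cells (-1.03 ± 0.90). It was lower on both slides, and the genotypes overlapped. *Cdkn2a* and *Cdkn2b*, the INK4 inhibitor genes of one locus, were not tested because they did not pass the background filter in either genotype.

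Most E2F targets of G1/S, the replication and nucleotide synthesis genes that activators induce, had higher estimates in Meis1-KO cells, but no single gene passed the test. Of the 54 target genes, all tested, 46 were higher and 8 lower, with a median log2 fold change of 0.35, where 59.9% of all genes with a symbol were higher and their median was 0.13. Both Meis1-KO pools lay above both Meis1-WT pools in 17 of the 54 and below them in 1, where 2017 and 1190 of all 12257 genes with a symbol did so. None of the 54 had an unadjusted p under 0.05, and the lowest was 0.117. The list was drawn up with earlier results of these data known, and it received no test as a set. The comparison with all genes was not matched for signal level. Median levels of the targets were 2.18 and 2.68 on the Meis1-KO and 1.95 and 2.22 on the Meis1-WT arrays. Those of all genes were 0.44 and 0.49, and 0.46 and 0.43.

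Among the targets, *Tyms*, which encodes thymidylate synthase, read 3.43 and 3.97 in Meis1-KO and 2.94 and 2.84 in Meis1-WT cells, a log2 fold change of 0.81 ± 0.45. *Cdc7*, the kinase gene that fires replication origins, read 1.44 and 1.63 against 0.85 and 0.93 (0.65 ± 0.42). *Gins1*, a subunit of the replicative helicase, read 1.68 and 2.58 against 1.58 and 1.34 (0.67 ± 0.50). In all 3 genes the pools of the genotypes did not overlap. *Dnmt1*, the maintenance DNA methyltransferase gene, had the lowest estimate of the list, at -0.74, with differences of 0.47 on slide 1 and -1.95 on slide 2.

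The height of the target differences depended on the second Meis1-KO array. On slide 1, 48 of 54 targets were higher with a median of 0.18, and on slide 2, 42 were higher with a median of 0.56. Without the second Meis1-KO array the median was 0.069 with 38 of 54 higher, and without the first it was 0.68. With no scaling between arrays the median was -0.023 with 23 of 54 higher. Set against the median of all probes in the same setting, the target median was 0.27 above it with the 75th percentile scaling and with no scaling, 0.16 with quantile scaling and 0.058 with normexp background correction. By the same measure it was 0.044 above without the second Meis1-KO array and 0.51 above without the first.

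The 20 genes of the G2/M program, the other arm that DREAM holds down, had a combined median of 0.18 with 12 higher, where 59.9% of all genes with a symbol were higher. All 20 were higher on slide 1, and 11 were higher on slide 2, where 6262 and 7479 of the 12257 genes with a symbol were. How this list differs from the G1/S targets was not tested. *Aurka*, which encodes the Aurora A mitotic kinase, was at 0.70 ± 0.43, *Ccnb1*, which encodes cyclin B1, at 0.89 ± 0.58, and *Birc5*, which encodes survivin, at 0.51 ± 0.44. On slide 2, the proliferation marker *Mki67* had a difference of -1.69. The kinetochore motor gene *Cenpe* was not well above background on the second Meis1-KO array and was well above it on the other 3 arrays. No gene of this list had an unadjusted p under 0.05.

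**Figure D4:**
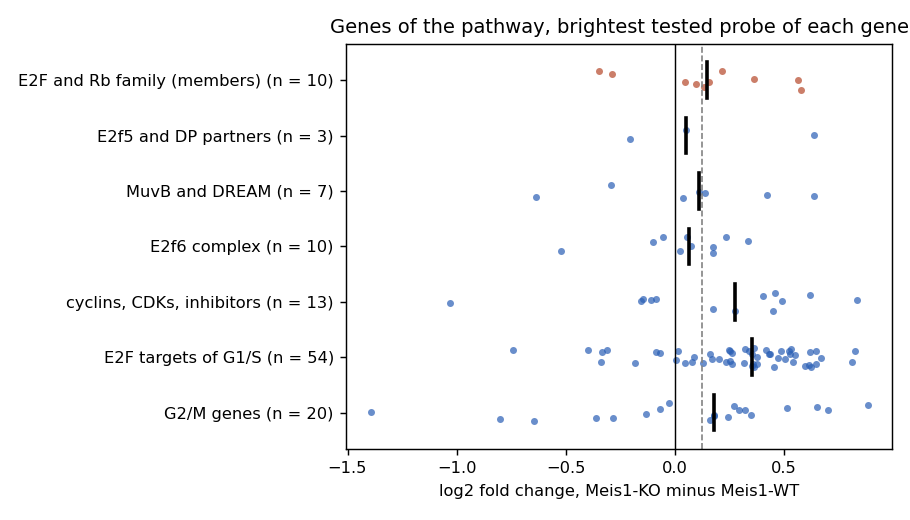
Log2 fold change (Meis1-KO minus Meis1-WT, horizontal axis) of each gene in the E2F and retinoblastoma family (red) and in the 6 pathway lists (blue), 1 point per gene, with the vertical spread of points added for legibility. Black bars are list medians, from 0.051 for the partners to 0.35 for the E2F targets, and the dashed line is the median of all genes with a symbol, 0.13.

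Several E2F genes are known to be E2F targets themselves, so the promoters were searched for E2F site letters. The forms of the site searched, on both strands, were TTTCCCGC, TTTGGCGC, TTTCGCGC and TTTGCCGC, from 250 bases before to 50 after each transcript start, with RefSeq sequences of GRCm38.p6. A match was present in 2.26% of 32851 windows and in 704 of 27025 genes (2.61%). Of the 8 members with a window, 4 held a match, namely *E2f2*, *E2f3*, *E2f7* and *Rbl1*, and *E2f1*, *E2f6*, *E2f8* and *Rbl2* held none. The stretches below show where those letters lie, with the match in capitals.
Rbl1: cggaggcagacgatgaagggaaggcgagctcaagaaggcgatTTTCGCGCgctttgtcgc
E2f3: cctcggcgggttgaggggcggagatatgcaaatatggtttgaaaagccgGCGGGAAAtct
E2f7: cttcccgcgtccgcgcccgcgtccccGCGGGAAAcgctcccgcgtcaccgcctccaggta
E2f2: gcatatagTTTGGCGCtaa
The *Rbl1* stretch is chr2:157204535-157204594 (minus strand), with the match at -18 to -11 from the start. In *E2f3*, at chr13:29986064-29986123 (minus strand), the match is on the reverse strand at -11 to -4 in 1 of its 2 windows. In *E2f7*, at chr10:110745215-110745274 (plus strand), it is on the reverse strand at -198 to -191, and in *E2f2*, at chr4:136172305-136172323 (plus strand), at 40 to 47 from the start of 1 of its 2 windows. A match is a run of letters and not evidence of binding.

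Members with and without the letters did not fall into separate groups, but 4 genes against 4 with standard errors of 0.42 to 0.53 could hardly show a separation. The 4 genes with a match had log2 fold changes of 0.36 (*Rbl1*), 0.14 (*E2f3*), 0.16 (*E2f7*) and -0.35 (*E2f2*), and the 4 without had 0.56 (*E2f1*), 0.10 (*E2f6*), -0.29 (*E2f8*) and 0.58 (*Rbl2*). Of the 45 E2F targets with a window, 20 held a match (44.4%), and of the 17 G2/M genes 0 did. Since 25 of the E2F targets held none, a gene without these letters can still be a target. Target genes with a match had a median of 0.35 with 16 of 20 higher, and those without had a median of 0.26 with 22 of 25 higher. Over all genes with a symbol, the median was 0.15 for the 386 with a match and 0.12 for the 7833 without.

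Markers of other cell types were read on the same arrays, since fewer cells of a type and less RNA per cell cannot be told apart in pooled cells. As a baseline, linear levels summed over all 12257 genes with a symbol were 95891 and 146708 on the Meis1-KO arrays. On the Meis1-WT arrays they were 100030 and 92397, so such sums differed between arrays for all genes too. The B lineage had 3 of 6 markers tested, with linear summed levels of 8.16 to 11.6 on the Meis1-KO and 7.13 to 17.8 on the Meis1-WT arrays, and *Ms4a1*, *Igll1* and *Cd79a* were not tested. The T lineage had 1 of 4, *Cd8a*, which was well above background on 1 of 2 Meis1-KO arrays and on both Meis1-WT arrays (-1.34, limma adjusted p = 0.983), and *Cd3d*, *Cd3e* and *Cd4* were not tested. Plasma cell markers were 3 of 5, with sums of 4.89 to 24.9 against 13.0 to 25.4, and no unadjusted limma p under 0.05.

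Erythroid markers, tested in 6 of 7 genes, had sums of 98.3 to 245 on the Meis1-KO arrays against 23.3 to 85.9 on the Meis1-WT arrays, made up mostly of *Hbb-b1*, which read 6.55 and 7.93 in Meis1-KO against 6.30 and 4.46 in Meis1-WT cells. Of these 6 genes, 3 were higher, namely *Hbb-b1* (1.86), *Rhag* (1.72, limma adjusted p = 0.983) and *Epor* (0.53), and 3 lower, namely *Klf1* (-0.61), *Hba-a1* (-0.28) and *Alas2* (-0.075). Granulocyte and monocyte markers, 7 of 9, had sums of 115 to 164 against 58.8 to 179, with 2 genes higher, *Ctsg* (0.92) and *Mpo* (0.56), and 5 lower, among them *Elane* (-1.57, limma adjusted p = 0.983). Megakaryocyte markers, 5 of 5, had sums of 5.21 to 9.79 against 7.90 to 32.2, with 2 higher and 3 lower, and *Itga2b* was at -1.65 (limma adjusted p = 0.983). *Cd8a*, *Rhag*, *Elane* and *Itga2b* were the 4 markers with an unadjusted limma p under 0.05, where 618 of all 22007 tested probes were. With the slide as a replicate block *Hbb-b1*, *Pf4* and the plasma cell marker *Sdc1* were under it as well, where 1335 of all tested probes were. The part of these cell types in the values of the E2F genes and their targets was not tested.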

How the data were processed

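Total RNA (10 ng per pool) was amplified, labelled with Cy3 and hybridized to 4 one-colour whole-genome mouse oligonucleotide arrays. The authors deposited scanner files with an intensity per spot (Agilent Feature Extraction 9.5.3.1 per the file headers, 9.1 per the submitters' processing notes) and a value table of the series. The deposited processed signal is background-subtracted by the scanner software, and for dim spots it is a surrogate (25.2% to 33.2% of spots). Amplification from so little RNA may add spread between arrays. The files hold 43379 non-control spots per array, none saturated. The number of arrays limits the precision.

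Outlier spots were left out, log2 was taken, the array's 75th percentile subtracted, and spots of a probe averaged. A probe was tested if its signal was well above background in both pools of 1 or both genotypes (22007 of 41174), with limma 3.58.1 in R 4.3.3 (lmFit, eBayes) and Benjamini-Hochberg adjustment over all tested probes. Scripts ran in Python 3.11.15 and were tested on simulated data. Probe positions are those of the array annotation (mm9), and 15 member probes matched RefSeq accessions. Promoters came from RefSeq (GRCm38.p6), where *E2f4* and *Rb1* had no window.

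All 10 members were named with every probe. From each pathway list, genes with p under 0.05 were named, or else up to 3 with the smallest p. *E2f5* completes its list, and *Cdkn1a*, *Dnmt1*, *Mki67*, *Cenpe*, *Cdkn2a*, *Cdkn2b* and the markers named with no p under 0.05 were chosen after their values were seen. Members and lists were chosen with earlier results of these data known. Replicate numbers matched slides in both genotypes. Same-slide arrays deviated together from their genotype means (correlation 0.27 over probes). Alternatives were other scalings, normexp, the series table, other filters on dim probes and keeping outlier spots. The rest were the slide as a replicate block, the methods' t-test, limma with an intensity trend and leaving out each array.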

Additional observations from a re-analysis of the deposited data

How the results depend on the processing

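The number of member probes with an unadjusted p under 0.05 was 0 under every alternative except leaving out arrays, which gave 0 to 2 (2 without Meis1-KO replicate 1). With the slide as a replicate block it was 0 of 16, with a smallest limma p of 0.258, and 11 were higher. Over all 22007 tested probes the block raised calls at an unadjusted p under 0.05 from 618 to 1335, and adjusted calls from 0 to 50. The number of higher probes was 11 and became 3 with no scaling (25.6% of all probes, against 56.3%) and 8 to 12 without single arrays. The count of 8 was without Meis1-KO replicate 1, where 57.1% of all probes were higher. It was 12 with median scaling (62.5% of all probes), 9 with quantile scaling (52.7%) and 9 with normexp (66.7%). The E2F target median (0.35) was -0.023 with no scaling and 0.069 to 0.68 without single arrays, its lowest without Meis1-KO replicate 2 and its highest without Meis1-KO replicate 1. Signs of main probes turned as follows. Leaving out the scaling shifts every probe alike, so distances from the median of all probes stay as they were, and the log2 fold changes were then -0.24 for *E2f3*, -0.16 for *E2f4*, -0.28 for *E2f6*, -0.22 for *E2f7*, -0.33 for *Rb1* and -0.015 for *Rbl1*. With quantile scaling they were -0.074 for *E2f3* and -0.049 for *E2f6*, and with normexp -0.064 for *E2f3*, -0.084 for *E2f6* and -0.017 for *Rb1*. Without single arrays, *E2f2* ran from -0.74 to 0.049, *E2f3* from -0.15 to 0.43, *E2f4* from -0.077 to 0.51, *E2f7* from -0.23 to 0.55, *E2f8* from -0.81 to 0.24 and *Rb1* from -0.29 to 0.38. *E2f1* and *Rbl2* kept their sign under all 15 alternatives, of which the filters on dim probes, the block and the other tests cannot change a fold change. Without single arrays *E2f1* ran from 0.32 to 0.81 and *Rbl2* from 0.35 to 0.81. No main probe of any member had an unadjusted p under 0.05 under any of them. The cause of these changes was not tested.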
